A study of Mus musculus with 12 samples.

Results

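The 10 genes described here, Pax5, Ebf1, Vpreb3, Igll1, Rag1, Rag2, Dntt, Il7r, Cd79a and Cd79b, are early B cell development genes and were taken by name from the 37620 genes of a count table of bone endothelial cells (BECs). All 10 had counts in every library and passed the filter on low counts in every comparison. The BECs came, per the labels, from tibia of c57/Bl6 mice, an inbred laboratory strain (the methods of the study name C57BL/6J and isolate BECs from femurs too), without any engineered allele or treatment named in the labels, and were purified by endomucin, a surface protein of bone vessels. Females and males aged 2 weeks and 65 weeks gave 4 groups of 3 libraries each. The labels do not say whether each library came from a separate animal, so p-values measure the spread between these libraries, which may in part be technical. The comparisons asked how the genes differed with age within each sex, and between sexes at each age.

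B cells are made in the marrow, where a progenitor commits to the lineage, cuts and rejoins its immunoglobulin heavy chain gene, tests the product in a pre-B cell receptor, and then does the same for a light chain before it carries a complete receptor at its surface. Ebf1 and Pax5 are the transcription factors that set and hold this identity. The interleukin 7 receptor carries the survival and growth signal of precursors. Rag1 and Rag2 together form the recombinase, and Dntt, terminal deoxynucleotidyl transferase, adds bases at the joints. Igll1 (λ5) is part of the surrogate light chain that stands in for a light chain in the pre-B cell receptor. Vpreb3 encodes a related protein that binds immunoglobulin chains inside the cell. Cd79a and Cd79b encode the signalling chains Igα and Igβ, which serve both the pre-B cell receptor and the receptor of mature B cells. Igll1, Rag1, Rag2 and Dntt are thus markers of precursors, whereas Pax5, Cd79a and Cd79b stay on in mature B cells.

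None of these genes is used as a marker of endothelial cells, so the labelled cell type was checked first. The 12 endothelial marker genes, Emcn for endomucin among them, had a summed level of 2778 to 5119 CPM (counts per 1000000 counts of the library) in the libraries of 2 weeks, and of 176 to 297 CPM in those of 65 weeks. All 12 fell with age in each sex, with a median log2 fold change of −4.22 in females and −4.51 in males. The 9 marrow stromal markers, some of which signal to B cell precursors, also fell without exception, with medians of −3.31 and −3.13. The summed level of 11 mature B cell markers was 146 to 219 CPM at 2 weeks and 419 to 1621 CPM at 65 weeks. Total counts were 26044743 to 44569600 per library, and each of the 65-week libraries had fewer counts than each of those of 2 weeks. In bulk RNA, fewer cells of a type and less RNA per cell cannot be told apart, and the part of the cell mixture in the differences with age was not tested.

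One library stood apart. Male 65-week replicate 3 had 1621 CPM of mature B cell markers, whereas replicates 1 and 2 had 517 and 419 CPM. Its T cell markers, at 175.5 CPM, lay between the 189 and 112 CPM of the other two, and its endothelial markers, at 249 CPM, were the highest of the group. Most of the T cell sum was Cd4, at 127 ± 40.5 CPM in 65-week males (SD, n = 3), so the sum says little of the other T cell markers. For the change of each of the 10 genes with age, and for the list counts and medians below, the values that this library moved are therefore also given without it. Between sexes, the calls made without it are given. Values of single genes of the lists include this library. Leaving it out raised the number of genes called between sexes at 65 weeks from 6 to 830.

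Promoter windows were read for the genes whose opposite changes with age are described below. RefSeq (GRCm38.p6) held such windows, 250 bases before to 50 after the start, for 9 of the 10 genes, in 10 windows. CAGGTG, the E-box bound by E2A and related factors of lymphocytes, was searched on both strands and was present in 3 of the 10 windows, compared with 20.2% of all 32851 promoter windows. The letters CCCNNGGG, the core of the site bound by EBF1 and its own reverse complement, were present in 1 of the 10 windows, compared with 13.7% of all. A match is a run of letters and not a measured site. A window without these exact letters can still hold a site for the same factor, so a missing match does not show that a site is absent. The 250 bases before the start are shown 5′ to 3′ on the strand of the gene for the 3 genes with a match, since they changed in different directions with age, with positions in GRCm38.p6. Capitals mark the matches.
Igll1, chr16:16863986-16864235, minus strand: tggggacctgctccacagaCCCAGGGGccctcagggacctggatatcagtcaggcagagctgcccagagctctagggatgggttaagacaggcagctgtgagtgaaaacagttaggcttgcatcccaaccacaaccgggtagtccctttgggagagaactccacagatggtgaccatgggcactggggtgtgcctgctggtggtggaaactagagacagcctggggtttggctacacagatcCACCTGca
Rag1, chr2:101649533-101649782, minus strand: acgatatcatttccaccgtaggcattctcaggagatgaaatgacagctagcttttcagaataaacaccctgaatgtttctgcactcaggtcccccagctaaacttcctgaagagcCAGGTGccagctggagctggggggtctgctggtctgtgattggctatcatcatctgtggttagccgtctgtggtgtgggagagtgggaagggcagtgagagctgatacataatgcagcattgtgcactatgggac
Cd79a, chr7:24897247-24897496, plus strand: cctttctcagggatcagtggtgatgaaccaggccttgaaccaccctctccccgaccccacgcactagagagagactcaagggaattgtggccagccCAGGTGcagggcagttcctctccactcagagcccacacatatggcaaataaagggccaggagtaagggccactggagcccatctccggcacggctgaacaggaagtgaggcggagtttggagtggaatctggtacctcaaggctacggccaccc
The matches began 231 and 8 bases before the start in Igll1, where CCCAGGGG and CACCTG were found. They began 135 bases before it in Rag1 and 154 bases before it in Cd79a, both as CAGGTG. Igll1, which fell with age, and Cd79a, which rose, thus both held the E-box letters.

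With age, the 10 genes went in opposite directions. Cd79a, Cd79b, Pax5 and Il7r rose in both sexes, and Igll1 and Dntt fell in both sexes. Rag1 and Rag2 fell in males. Ebf1 and Vpreb3 passed the test in neither sex. Counts were tested with edgeR's quasi-likelihood test over all genes (Benjamini-Hochberg adjusted p under 0.05), and log2 fold changes, 65 over 2 weeks, are given ± SE after TMM scaling. In females, 4 of the 10 genes rose, compared with 30.2% of all 15120 genes tested, and 2 fell, compared with 29.5%. In males, 4 rose, compared with 27.0% of 14959 genes, and 4 fell, compared with 28.5%. Without male 65-week replicate 3, all 10 genes passed the test in males: 4 rose, compared with 29.3% of 15437 genes, and 6 fell, compared with 32.7%, Ebf1 and Vpreb3 among them. In each of these fits most genes tested changed with age. The libraries of the 2 ages did not overlap for 7 of the 10 genes in females and 8 in males, compared with 69.2% and 65.4% of all genes. The median log2 fold change of the 10 genes was −0.25 in females and −0.56 in males, compared with 0.01 for all genes tested in each sex.

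**Figure D1:**
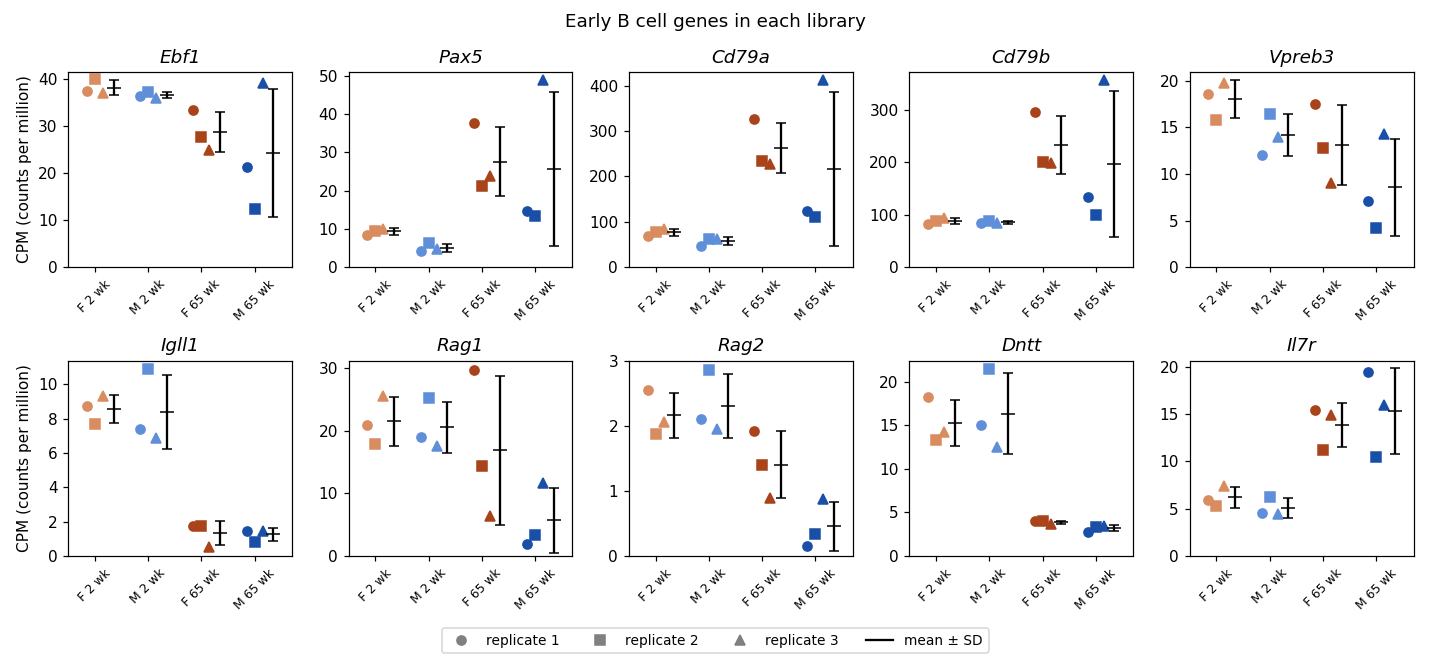
Level of each of the 10 genes in each library, in CPM on a linear axis from 0. Symbols are the 3 replicates of each group, F and M are females and males, and bars are mean ± SD (n = 3). Igll1 and Dntt separate the ages in both sexes, and male 65-week replicate 3 (triangles) is the highest of its group for Pax5, Ebf1, Vpreb3, Rag1, Rag2, Cd79a and Cd79b.

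The receptor chains were the most abundant of the 10 genes and rose in both sexes. Cd79a (chr7:24596740-24601622 in GRCm39, the build of all gene positions that follow) was at 69.3, 77.1 and 83.7 CPM in 2-week females and at 325.7, 233.1 and 227.2 CPM in 65-week females. The groups did not overlap, with a log2 fold change of 1.91 ± 0.15 (adjusted p = 2.55e-05, edgeR). In males Cd79a was at 46.4, 63.0 and 62.0 CPM at 2 weeks and at 124.4, 110.6 and 411.9 CPM at 65 weeks. The groups again did not overlap, although replicate 3 was more than 3 times as high as the others (2.00 ± 0.47, adjusted p = 0.00789, edgeR). Without that library the log2 fold change was 1.17 and still passed the test.

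Cd79b (chr11:106202167-106205588) was at 82.8, 87.8 and 94.0 CPM in 2-week females and at 296.0, 201.5 and 199.4 CPM in 65-week females, a log2 fold change of 1.53 ± 0.16 (adjusted p = 9.29e-05, edgeR). The male libraries were at 84.2, 88.5 and 83.7 CPM at 2 weeks and at 133.2, 99.7 and 357.5 CPM at 65 weeks. All 65-week males were above the 2-week males, replicate 2 only slightly (1.29 ± 0.41, adjusted p = 0.0277, edgeR). This call was the less firm of the pair: without male 65-week replicate 3 the log2 fold change was 0.57 and still passed the test, and the call was lost when any one of the 2-week male libraries was left out, with an adjusted p of up to 0.0852.

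Of the commitment factors, Pax5 rose and Ebf1 did not. Pax5 (chr4:44524757-44710487) was at 8.39, 9.54 and 10.1 CPM in 2-week females and at 37.8, 21.2 and 23.7 CPM in 65-week females (log2 fold change 1.69 ± 0.22, adjusted p = 0.000287, edgeR). In males it was at 4.20, 6.30 and 4.73 CPM at 2 weeks and at 14.6, 13.5 and 48.8 CPM at 65 weeks (2.42 ± 0.49, adjusted p = 0.00399, edgeR). The ages did not overlap in either sex, and without male 65-week replicate 3 the log2 fold change was 1.59 and still passed the test. Pax5 kept close to Cd79a across the libraries: its CPM were 12.2% ± 0.176 of those of Cd79a in 2-week females, 8.89% ± 1.18 in 2-week males, 10.4% ± 1.25 in 65-week females and 11.9% ± 0.247 in 65-week males (SD, n = 3).

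Ebf1 (chr11:44508138-44898918), which is also used by adipocyte precursors and other stromal cells, was at 37.6, 40.1 and 37.0 CPM in 2-week females and at 33.5, 27.8 and 25.0 CPM in 65-week females. The 65-week libraries were all lower, but the difference of −0.27 ± 0.11 missed the threshold (adjusted p = 0.063, edgeR). It passed with DESeq2, with both other scalings and without female 65-week replicate 1 or female 2-week replicate 3, at log2 fold changes of −0.31 to −0.41. Male libraries had 36.5, 37.2 and 36.0 CPM of it at 2 weeks and 21.3, 12.4 and 39.2 CPM at 65 weeks. Here replicate 3 was above the 2-week libraries and the other two below them (−0.49 ± 0.33, adjusted p = 0.244, edgeR). Without replicate 3 the log2 fold change was −0.99 and passed the test (adjusted p = 0.00581, edgeR). Relative to Cd79a, Ebf1 went from 50.1% ± 5.24 to 11.1% ± 0.817 in females and from 65.3% ± 11.7 to 12.6% ± 3.99 in males (SD, n = 3). The stromal markers fell beside it, and their part in its level was not tested.

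Of the genes particular to precursors, Igll1 and Dntt fell in both sexes. Igll1 (chr16:16678535-16681849) was at 8.74, 7.71 and 9.32 CPM in 2-week females and at 1.76, 1.73 and 0.512 CPM in 65-week females. It fell by 2.55 ± 0.39 on the log2 scale (adjusted p = 0.000724, edgeR), and 65-week libraries held 15 to 59 counts of it. Levels in males were 7.43, 10.9 and 6.85 CPM at 2 weeks and 1.46, 0.815 and 1.46 CPM at 65 weeks, and it fell by 2.63 ± 0.31 (adjusted p = 0.000255, edgeR). The ages were far apart in both sexes, and the male log2 fold change was −2.75 without replicate 3, which was level with replicate 1.

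Dntt (chr19:41017714-41047964) was at 18.3, 13.3 and 14.3 CPM in 2-week females and at 3.96, 3.96 and 3.65 CPM in 65-week females, and fell by 1.85 ± 0.17 on the log2 scale (adjusted p = 4.28e-05, edgeR). In males it was at 15.01, 21.5 and 12.6 CPM at 2 weeks and at 2.78, 3.37 and 3.38 CPM at 65 weeks, and fell by 2.25 ± 0.23 (adjusted p = 0.000137, edgeR). The 65-week libraries were within a narrow range in both sexes, and the male value was −2.29 without replicate 3, which was level with replicate 2. Opalin, a gene on the other strand, shares 22.7% of the exon bases of Dntt. Whether the counting used strand is not stated.

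Rag1 and Rag2, neighbours on chromosome 2, varied more between libraries. Rag1 (chr2:101468603-101479877) was at 20.97, 17.96 and 25.7 CPM in 2-week females and at 29.8, 14.5 and 6.41 CPM in 65-week females. The 65-week females thus spanned the 2-week range, and no difference was detected (−0.22 ± 0.45, adjusted p = 0.698, edgeR). Without female 65-week replicate 3 the log2 fold change turned to 0.17. In males Rag1 was at 19.0, 25.3 and 17.5 CPM at 2 weeks and at 1.94, 3.37 and 11.7 CPM at 65 weeks. All 65-week males were lower (−1.78 ± 0.55, adjusted p = 0.0262, edgeR). Without male 65-week replicate 3 the log2 fold change was −2.84 (adjusted p = 8.59e-05, edgeR), whereas the call was lost without any one of the other 5 male libraries (adjusted p up to 0.0801).

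Rag2 (chr2:101455063-101462874) had the lowest mean CPM of the 10 genes in each group except the 65-week females, where Igll1 was lower. It was at 2.56, 1.89 and 2.06 CPM in 2-week females and at 1.93, 1.41 and 0.887 CPM in 65-week females, which overlapped (−0.49 ± 0.33, adjusted p = 0.239, edgeR). In males it was at 2.11, 2.87 and 1.95 CPM at 2 weeks and at 0.146, 0.333 and 0.883 CPM at 65 weeks, from 4 to 23 counts per library. It fell by 2.25 ± 0.54 on the log2 scale (adjusted p = 0.00875, edgeR), and by 3.14 without male 65-week replicate 3.

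Vpreb3 (chr10:75778891-75785496) was at 18.6, 15.8 and 19.8 CPM in 2-week females and at 17.6, 12.8 and 9.01 CPM in 65-week females (−0.33 ± 0.23, adjusted p = 0.247, edgeR). The male values were 12.1, 16.5 and 14.0 CPM at 2 weeks and 7.14, 4.22 and 14.3 CPM at 65 weeks (−0.63 ± 0.37, adjusted p = 0.188, edgeR). The ages overlapped in both sexes. The difference passed the test without female 65-week replicate 1 (−0.59, adjusted p = 0.0378, edgeR) and without male 65-week replicate 3 (−1.19, adjusted p = 0.0055, edgeR). An antisense long non-coding RNA, Gm65908, overlaps 67.1% of the exon bases of Vpreb3 in GENCODE M39, so reads of the pair cannot be told apart without strand.

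Il7r (chr15:9505874-9530262), the only receptor for a cytokine among the 10 genes, went with the rising group. It was at 5.91, 5.26 and 7.39 CPM in 2-week females and at 15.4, 11.2 and 14.8 CPM in 65-week females (1.29 ± 0.19, adjusted p = 0.000625, edgeR). In males it was at 4.49, 6.22 and 4.38 CPM at 2 weeks and at 19.5, 10.5 and 16.0 CPM at 65 weeks (1.72 ± 0.27, adjusted p = 0.00109, edgeR). The ages did not overlap, and without male 65-week replicate 3 the value was 1.70. T cells also carry this receptor. Of 11 T cell markers, 10 rose in females and 9 in males, compared with 30.2% and 27.0% of all genes tested. In males 1 fell, Lck, by 0.79 ± 0.24 (adjusted p = 0.0225, edgeR). The part of T cells in the level of Il7r was not tested.

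**Figure D2:**
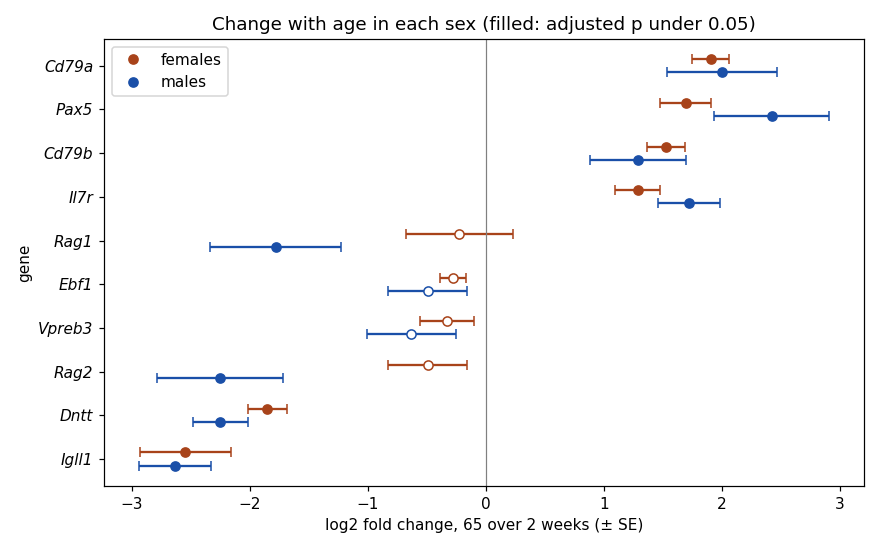
Log2 fold change, 65 over 2 weeks, of each gene in females and in males, with bars for ± SE. Filled symbols passed the test and open ones did not. Cd79a, Pax5, Cd79b and Il7r lie to the right of 0 in both sexes and Igll1 and Dntt to the left, whereas Rag1 and Rag2 are filled in males and open in females.

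Set against the receptor chains, the precursor genes were far lower at 65 weeks than at 2 weeks. Cd79a and Cd79b, the divisor, rose with age in both sexes, so a lower percent is not by itself a fall of the precursor genes. The summed CPM of Igll1, Rag1, Rag2 and Dntt were 33.2%, 24.8% and 28.9% of those of Cd79a and Cd79b in 2-week females, and 33.4%, 39.9% and 26.7% in 2-week males. At 65 weeks they were 6.02%, 4.96% and 2.69% in females and 2.46%, 3.75% and 2.26% in males. The ages did not overlap in either sex. As means these were 29.0% ± 4.21 and 4.56% ± 1.70 in females and 33.3% ± 6.60 and 2.82% ± 0.810 in males (SD, n = 3). This ratio is a description, with no test, and male 65-week replicate 3 lay with its group on it although its CPM of Cd79a stood apart.

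Taken gene by gene against Cd79a, all 4 precursor genes were lower at 65 weeks in every library. Igll1 went from 11.3% ± 1.31 to 0.502% ± 0.261 in females and from 14.8% ± 3.27 to 0.756% ± 0.412 in males. Dntt went from 20.2% ± 5.31 to 1.51% ± 0.257 and from 28.9% ± 7.55 to 2.03% ± 1.13. Rag1 went from 28.1% ± 4.12 to 6.06% ± 3.16 in females and from 36.5% ± 7.09 to 2.48% ± 0.805 in males (SD, n = 3). In females Rag1 and Rag2 did not pass the test on their own counts, whereas Cd79a rose. Vpreb3, which did not pass the test on its own counts, went from 23.6% ± 3.17 to 4.95% ± 0.853 and from 24.9% ± 2.08 to 4.34% ± 1.22. Il7r relative to Cd79a was lower at 65 weeks in females without overlap, at 6.82% to 8.83% at 2 weeks and 4.74% to 6.53% at 65 weeks. In males it overlapped between ages, at 7.06% to 9.88% at 2 weeks and 3.88% to 15.7% at 65 weeks.

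**Figure D3:**
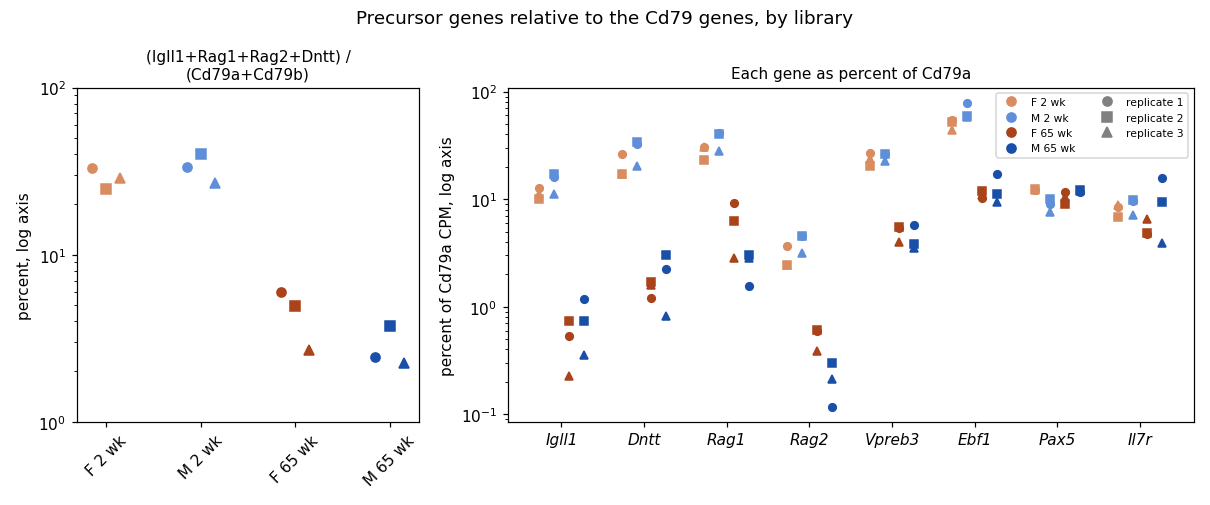
Left, summed CPM of Igll1, Rag1, Rag2 and Dntt as percent of the summed CPM of Cd79a and Cd79b in each library, and right, each of 8 genes as percent of Cd79a, both on log axes. The 6 libraries of 2 weeks lie between 24.8% and 39.9% in the left panel and the 6 of 65 weeks between 2.26% and 6.02%; on the right Pax5 stays near the same percent in all groups.

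Per kilobase of exon, which allows genes to be set side by side, the order of the levels changed with age. In 2-week females Cd79b led with a mean of 61.6 CPM per kb, followed by Cd79a at 50.4, Vpreb3 at 20.7 and Dntt at 6.67. The ranges of these neighbours did not overlap. Igll1 at 3.97, Ebf1 at 3.92 and Rag1 at 3.23 CPM per kb came next, and Igll1 and Ebf1 overlapped, as did Ebf1 and Rag1. Il7r at 1.33, Pax5 at 1.05 and Rag2 at 0.634 CPM per kb were the lowest, with Il7r and Pax5 overlapping only slightly. The 2-week males had the same order except that Rag2, at 0.675, stood above Pax5, at 0.573, with overlapping ranges.

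In 65-week females Cd79a at 172 and Cd79b at 162 CPM per kb led with overlapping ranges, and Vpreb3 followed at 15.1. Pax5 had moved up to 3.12 and Il7r to 2.96 CPM per kb, beside Ebf1 at 2.95 and Rag1 at 2.53, and these overlapped, Rag1 also with Dntt. Dntt at 1.68, Igll1 at 0.616 and Rag2 at 0.411 CPM per kb closed the order, the last pair overlapping. The order in 65-week males was Cd79a at 141.6, Cd79b at 137.5, Vpreb3 at 9.84, Il7r at 3.28, Pax5 at 2.89, Ebf1 at 2.49, Dntt at 1.39, Rag1 at 0.850, Igll1 at 0.576 and Rag2 at 0.133 CPM per kb. Of the neighbours in this order, Cd79b and Vpreb3, Vpreb3 and Il7r, and Igll1 and Rag2 had ranges that did not overlap, and those of the others overlapped.

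Within the groups, most of the 10 genes went up and down together from library to library. With each library's log2 CPM centred on its group mean, the correlation of a gene with the mean of the other 9 over the 12 libraries was 0.943 for Vpreb3, 0.914 for Pax5, 0.908 for Cd79b, 0.891 for Cd79a, 0.867 for Rag1, 0.828 for Ebf1 and 0.801 for Rag2 (Pearson's r, a description). It was 0.544 for Igll1, 0.265 for Il7r and 0.246 for Dntt. The points share library and depth, and male 65-week replicate 3 had the highest centred value of all for the first 7 genes. Among the genes most like the mean of the 10 by this measure were Bach2 (r = 0.982), Pou2af1 (0.975), Cnp (0.974), Irf4 (0.964) and Spib (0.962). Bach2, Pou2af1, Irf4 and Spib are transcription factors or cofactors of B cells.

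**Figure D4:**
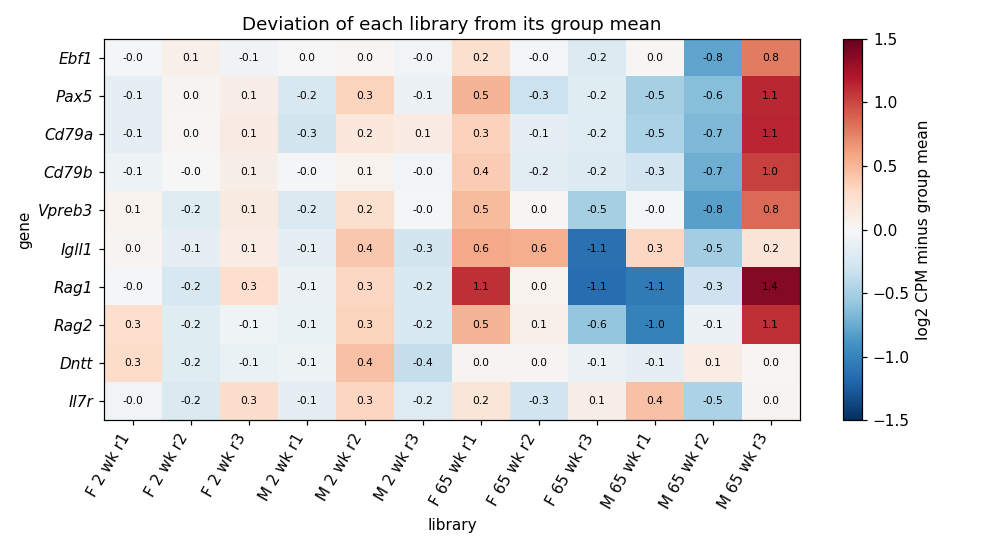
Deviation of each library from its group mean for each of the 10 genes, in log2 CPM, from blue (below the mean) to red (above), with the value in each cell. The column of male 65-week replicate 3 is red for Ebf1, Pax5, Cd79a, Cd79b, Vpreb3, Rag1 and Rag2, while Dntt and Il7r deviate little there.

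The partners of these genes were counted from fixed lists, beside the background shares given above. Of 12 genes of B cell receptor signalling, downstream of Cd79a and Cd79b, 11 rose and 1 fell in each sex, with a median log2 fold change of 1.14 in females and 1.12 in males. Blk, a kinase of B cells, rose by 1.85 ± 0.17 in females (adjusted p = 5.6e-05, edgeR) and by 2.03 ± 0.63 in males (adjusted p = 0.027, edgeR). Fyn, a kinase of the same family that many cell types use, fell by 0.36 ± 0.11 in females and by 1.20 ± 0.23 in males. Without male 65-week replicate 3, 9 of the 12 rose and 1 fell in males, compared with 29.3% and 32.7% of all genes. The male median was then 0.83.

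Of 7 heavy chain, light chain and surrogate light chain genes listed, Ighm, Igkc and Iglc2 were matched, and all 3 rose in both sexes. Igkc was at 99.2 ± 13.1 CPM in 2-week females and at 6910 ± 794 CPM in 65-week females, and at 82.9 ± 11.9 and 5238 ± 1192 CPM in males (SD, n = 3). Ighm was at 367 ± 31.2 and 11070 ± 5923 CPM in females and at 297 ± 28.5 and 9146 ± 1904 CPM in males. These log2 fold changes were 6.26 and 5.05 in females and 6.11 and 5.07 in males, and those of Iglc2 were 2.74 and 3.29. Plasma cells, which transcribe these genes heavily, had 5 of 7 markers higher and 1 lower in females and 4 higher and 2 lower in males, and their part was not tested.

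Of 15 other transcription factors of the B lineage, 9 rose and 2 fell in females and 7 rose and 2 fell in males, with medians of 0.72 and 0.66. Ikzf3 (Aiolos), which acts in later precursors and mature B cells, rose most, by 2.56 ± 0.15 in females and 2.90 ± 0.50 in males. Irf4 rose by 1.77 ± 0.11 in females and 1.35 ± 0.28 in males. Pou2af1, a coactivator of immunoglobulin genes, rose by 1.67 ± 0.17 in females and 1.45 ± 0.40 in males. Sox4 and Lef1, which act in early lymphoid precursors and are also used outside the lineage, fell. Sox4 fell by 1.15 ± 0.19 in females and 1.95 ± 0.32 in males, and Lef1 by 1.77 ± 0.37 and 1.76 ± 0.28. In males 7 rose and 4 fell without replicate 3, with a median of 0.22, beside the same 29.3% and 32.7% of all genes.

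In the interleukin 7 pathway the ligand and the receptor chain went opposite ways. Il7, made by marrow stromal and endothelial cells, had a mean of 21.2 ± 5.49 CPM in females at 2 weeks, and 1.95 ± 0.769 CPM were left at 65 weeks. The male means were 22.3 ± 1.98 and 1.11 ± 0.170 CPM (SD, n = 3). It fell by 3.29 ± 0.30 and by 4.21 ± 0.17 on the log2 scale (adjusted p = 4.5e-05 and 1.75e-06, edgeR). Cish, a target of STAT5 that acts downstream of several cytokine receptors, fell by 1.43 ± 0.12 and 1.63 ± 0.15. Mcl1, a survival factor, rose by 1.20 ± 0.08 and 1.12 ± 0.10. Il2rg, the chain that pairs with Il7r, rose by 1.02 ± 0.12 in females and did not pass the test in males (0.22 ± 0.21, adjusted p = 0.403, edgeR). Crlf2, which pairs with Il7r in the receptor for TSLP, rose by 0.90 ± 0.14 in females and by 0.92 ± 0.12 in males. Of all 12 genes listed, 4 rose and 3 fell in females and 3 rose and 4 fell in males, with a median of 0.02 in each. In males 3 rose and 5 fell without replicate 3, with a median of −0.22. The stromal and endothelial markers fell beside Il7, and their part in its level was not tested.

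The genes of end joining after Rag1 and Rag2, which most cells use, moved little as a list. This list also holds Hmgb1 and Hmgb2, which assist the recombinase itself. Hmgb2 rose by 0.42 ± 0.15 in females and by 0.84 ± 0.21 in males. Of the 12 genes listed, 2 rose and 3 fell in females and 3 rose and 2 fell in males, with medians of −0.10 and 0.04. In males without replicate 3, 3 rose and 3 fell, with a median of 0.004. Xrcc5 (Ku80) fell by 0.62 ± 0.16 in females and by 0.50 ± 0.14 in males. Dclre1c (Artemis), which opens the hairpins that the recombinase leaves, rose by 0.60 ± 0.18 in females and by 0.53 ± 0.14 in males.

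Markers of early progenitors and precursor B cells were mixed: of 8, 3 rose and 3 fell in females and 4 rose and 4 fell in males. Arpp21, a gene of precursor B cells, fell by 2.17 ± 0.33 in females and by 4.13 ± 0.81 in males (adjusted p = 0.000744 and 0.00366, edgeR). Its levels were low, at 3.23 ± 0.524 and 0.646 ± 0.231 CPM in 2-week and 65-week females (SD, n = 3). Those of males were 2.64 ± 0.843 and 0.140 ± 0.212 CPM, with 0 to 0.384 CPM at 65 weeks, so the size of the male fall is imprecise. Bst1, of the same list, rose by 0.88 ± 0.24 in females and by 1.61 ± 0.17 in males (adjusted p = 0.0131 and 0.000139, edgeR). Cd24a rose by 0.63 ± 0.23 and Flt3 fell by 0.72 ± 0.15 in males (adjusted p = 0.0475 and 0.00506, edgeR). In females neither passed the test (0.40 ± 0.17 and −0.34 ± 0.17, adjusted p = 0.0702 and 0.111, edgeR). Cd34 and Cd93, which fell too, are also endothelial genes, and Kit and Spn, which rose, are shared with other blood cells. All 11 mature B cell markers rose in each sex, with medians of 2.53 in females and 3.04 in males, and 1.94 in males without replicate 3. The 8 genes of cycling cells had a median of 0.06 in females and 0.42 in males, where 2 of them rose. Without replicate 3, 7 of the 8 rose in males, with a median of 0.62, compared with 29.3% of all genes. Of 6 markers of plasmacytoid dendritic cells, some of which express Dntt and Rag transcripts, 1 rose and 1 fell in females and 1 rose and 3 fell in males.

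**Figure D5:**
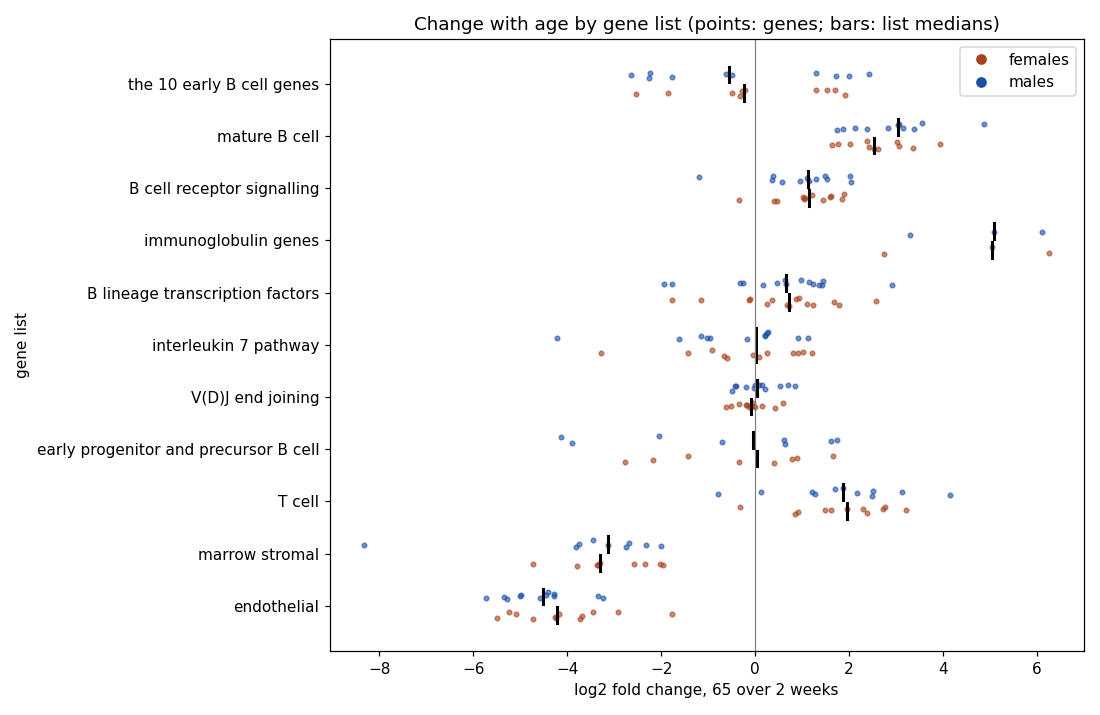
Log2 fold change, 65 over 2 weeks, of each gene of each list in females and in males (points), with the median of each list as a bar. The 10 early B cell genes spread to both sides of 0, whereas mature B cell and immunoglobulin genes lie to the right and endothelial and marrow stromal genes to the left.

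Between sexes none of the 10 genes passed the test at either age. At 2 weeks edgeR called 0 of the 10, compared with 0.0332% of all 15081 genes, 3 of the 10 had an unadjusted p under 0.05, and DESeq2 called 1. Pax5 was at 8.39 to 10.1 CPM in females and 4.20 to 6.30 CPM in males, which did not overlap (log2 fold change, male over female, −0.89 ± 0.17, adjusted p = 0.213, edgeR). DESeq2 gave −0.90 with an adjusted p of 0.00123 for Pax5. Cd79a did not overlap either, at 69.3 to 83.7 CPM in females and 46.4 to 63.0 CPM in males (−0.44 ± 0.14, adjusted p = 0.226, edgeR). Vpreb3, the third, differed by −0.37 ± 0.15 (adjusted p = 0.269, edgeR) with overlapping libraries. Libraries of the sexes did not overlap for 2 of the 10 genes, compared with 21.7% of all genes. The smallest errors were those of Cd79b, which differed by −0.06 ± 0.08, and Ebf1, by −0.08 ± 0.07.

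At 65 weeks edgeR again called 0 of the 10, compared with 0.042% of 14287 genes, and DESeq2 called 0. Rag1 (−1.63 ± 0.69, adjusted p = 0.468, edgeR) and Rag2 (−1.67 ± 0.65, adjusted p = 0.426, edgeR) had an unadjusted p under 0.05. The libraries of the sexes did not overlap for Rag2 and Dntt, 2 of the 10 genes, compared with 15.5% of all genes. Rag2 was at 0.887 to 1.93 CPM in females and 0.146 to 0.883 CPM in males, so that male replicate 3 and female replicate 3 nearly met. Without male 65-week replicate 3, Rag1 (−2.65, adjusted p = 0.048), Cd79a (−1.14, adjusted p = 0.0129) and Cd79b (−0.97, adjusted p = 0.0364) were lower in males by edgeR, when 5.65% of all genes were called.

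The sex by age interaction asks whether the change with age differed between sexes. By edgeR it was called for 0 of the 10 genes, compared with 0.00635% of 15747 genes, and by DESeq2 for 0. Only Rag2 had an unadjusted p under 0.05 (−1.76 ± 0.65, male minus female, adjusted p = 0.312, edgeR), and Rag1 followed at −1.57 ± 0.79 (adjusted p = 0.46, edgeR). The fall of Rag1 and Rag2 in males is therefore not shown to differ from the values in females. Without male 65-week replicate 3 the interaction of Rag2 was −2.60 and passed the test (adjusted p = 0.0337, edgeR), when 4.66% of all genes did.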

How the data were processed

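RNA of 12 BEC libraries was sequenced in 100 nt read pairs. The deposited values are raw read counts per gene, which the authors had not normalised. The submitters' processing notes name TopHat2, HTSeq and mm9, whereas the methods of the study name STAR, featureCounts and GRCm39, and which made the table was not resolved. A total RNA kit and polyadenylated RNA are both named. Samples had been chosen by RNA quality within each set. Genes were matched by Ensembl ID to GENCODE M39 (31052 of 37620 IDs, 99.3% of counts).

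Groups followed the sex and age in the labels. CPM were computed on library totals, and levels per kb on all exon bases of a gene. The test was the quasi-likelihood F test of edgeR 4.0.16 in R 4.3.3, after filterByExpr (minimum count 10) and TMM scaling, with Benjamini-Hochberg adjusted p under 0.05, within the 6 libraries of each comparison, and the interaction over all 12; DESeq2 1.42.0 was an alternative. The scripts were tested on simulated data. The 10 genes, the lists and their rules were chosen with earlier results of these data known. Named from each list were the called genes that rose most (2) and fell most (2) in each age comparison, at an average log2 CPM of at least 1. Arpp21, Cd34, Cd93, Kit, Spn, Bst1, Cd24a and Flt3 were named after their values were seen. The genes most like the 10 were the 6 with the highest correlation among those of an average log2 CPM of at least 3. Some genes that these rules name are not reported here. Of the listed genes Vpreb1, Vpreb2, Iglc1, Iglc3, Ighd and Igha had no match and were not analysed here.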

Additional observations from a re-analysis of the deposited data

How the results depend on the processing

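Of 798 alternative values of single genes, 744 kept their direction and side of the threshold, 13 gained the call, 8 lost it and 33 turned in sign, all in differences that had not passed the test; the cause was not tested. The called changes with age kept their call in all 15 alternatives, except Rag1 (10 of 15) and Cd79b (12 of 15) in males. Between sexes DESeq2 called 1 gene at 2 weeks, and leaving out 1 library in turn gave 0 to 3 at 65 weeks and 0 to 1 for the interaction, the highest in each case without male 65-week replicate 3. Without that library all 10 genes were called with age in males. The ratio of the precursor genes to Cd79a and Cd79b was 23.7% in 2-week females without Igll1. With Il7r and Vpreb3 added it was 43.7% and 46.7% at 2 weeks and 10.03% and 9.91% at 65 weeks, in females and males. Scaling by library totals alone moved the median of all genes to −0.13 in females and −0.11 in males and the share of higher calls from 50.6% to 40.2% and from 48.7% to 40.4%. No direction with age of the 10 genes turned under any scaling.

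The replicate numbers of the labels did not pair the libraries (correlation of same-numbered libraries −0.355 to 0.14), and the replicate block changed no count of calls among the 10 genes: 6 with age in females, 8 in males, and 0 between sexes at each age and for the interaction. It turned the interaction of Cd79a to −0.0649 and the 65-week sex difference of Igll1 to 0.00346. Thinning turned Rag2 between sexes at 2 weeks to −0.17. Leaving out 1 library in turn, the log2 differences that turned ranged in the interaction from −0.69 to 0.40 for Cd79a, from −0.91 to 0.068 for Cd79b, from −0.67 to 0.089 for Ebf1, from −0.48 to 0.15 for Igll1, from −0.062 to 1.02 for Pax5 and from −0.81 to 0.011 for Vpreb3, between sexes at 65 weeks from −0.97 to 0.04 for Cd79b, from −0.75 to 0.043 for Ebf1, from −0.50 to 0.13 for Igll1, from −0.092 to 0.35 for Il7r and from −0.95 to 0.16 for Pax5, between sexes at 2 weeks from −0.18 to 0.24 for Dntt, from −0.30 to 0.069 for Igll1, from −0.27 to 0.074 for Rag1 and from −0.12 to 0.22 for Rag2, with age in females from −0.90 to 0.17 for Rag1. With 3 libraries per group and 4 to 23 counts of Rag2 in 65-week males, differences of the lowest genes are the least precise.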
